A study of Homo sapiens with 2 samples.

Results

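Convergent overlapping genes are neighbours on opposite DNA strands that are transcribed toward each other and whose 3′ ends run past one another. Here such pairs were protein-coding genes of chromosomes 1 to 22 where the plus-strand gene started before the minus-strand gene and ended inside it. The rule used gene positions only and no count. It found 1151 pairs made of 2269 genes, out of 18541 protein-coding genes of the count table on these chromosomes and 64081 genes of all kinds. Of the member genes, 2236 stood in 1 pair and 33 in 2 pairs, which gives 2302 places of a gene in a pair.

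The counts came from LNCaP, an androgen-sensitive cell line from a prostate carcinoma. Cells had no androgen for 48 h, with FBS stripped by charcoal (10%) and HEPES (10 mM) in the medium, and their poly(A)+ RNA was sequenced in a strand-oriented paired-end mode. Both biological replicates (n = 2) share 1 column of read pairs per gene, so no value has a replicate error and no difference could be tested. Both samples are labelled as controls, no treated group was analysed here, and LNCaP is a single line.

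The table lists 9495309 read pairs on genes, and the median of all genes with a count was 12 pairs. A further 138995418 pairs, 93.5% of the uniquely mapped ones, fell on no feature, and 0.141% were ambiguous. The stated mapping option for these libraries reads the first mate as the strand of the RNA, while the stated counting option gives a pair to genes on the other strand. With both options in force, what is listed for a gene would be RNA of the opposite strand, which in a convergent pair is the strand of its partner. Whether both were in force was not tested, and the word listed is used for this reason. Markers of prostate luminal cells had listed counts of 8 to 105 (8 genes), fibroblast markers of 0 to 15 (4 genes), leukocyte markers of 0 to 49 (4 genes), and VWF and CDH5 of endothelium 0 and 3. Under these options such values would not be levels of the marker RNAs and are no check of the cell type.

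RNA polymerase II transcribes beyond the end of a gene, and the nascent RNA is cut downstream of a polyadenylation signal, most often the hexamer AATAAA or its variant ATTAAA. Where convergent genes end close together, their mature RNAs carry stretches that are complementary to each other, mostly in 3′ untranslated regions. Only strand-oriented sequencing can assign a read from such a stretch to 1 of the genes, which makes these pairs a place where the strand setting of a count decides whose RNA is listed.

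The ends of 4 pairs are shown because they carry the signals of both genes within or near the shared stretch. Each is the 30 nt window around the hexamer at the end of the canonical transcript of GENCODE release 44, read 5′ to 3′ on the strand of its gene from GRCh37, with the hexamer in capitals. BEST1 (plus strand, chr11:61731902-61731931), a chloride channel gene, faces FTH1 (minus strand, chr11:61731757-61731786), the heavy chain of the iron store ferritin. SNX22 (plus, chr15:64449646-64449675), a sorting nexin, faces PPIB (minus, chr15:64448033-64448062), a prolyl isomerase of the endoplasmic reticulum. SQSTM1 (plus, chr5:179265040-179265069), the autophagy receptor p62, faces MRNIP (minus, chr5:179264278-179264307), which binds the MRN DNA repair complex. MARS1 (plus, chr12:57910401-57910430), the cytosolic methionyl-tRNA synthetase, faces DDIT3 (minus, chr12:57910378-57910407), the stress transcription factor CHOP.
BEST1: actaatgagtttAATAAAtacaaatactcg
FTH1: ttttatgaataaaaggcATTAAAggctgaa
SNX22: ggaatgaacaggAATAAAagacagctgtga
PPIB: ccaacactgaccAATAAAaaaaaatgtggg
SQSTM1: caagacaaagcaAATAAAtgccttccacct
MRNIP: agaaccattaacAATAAActtactgtcaat
MARS1: gggacagtaataAATAAAtgtacaatctct
DDIT3: ctgtccctatctATTAAAgtgactttctat

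The canonical transcripts of BEST1 and FTH1 overlapped by 177 nt, those of MARS1 and DDIT3 by 60 nt, those of SQSTM1 and MRNIP by 803 nt and those of SNX22 and PPIB by 1665 nt. The 30 nt windows of MARS1 and DDIT3 cover part of the same bases, on opposite strands.

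The shortest overlap among the pairs with the most uneven counts is shown whole. TAF5, a subunit of the basal transcription factor TFIID, and ATP5MK, a small subunit of ATP synthase, overlap by 25 nt at chr10:105148798-105148822, and all of it is exonic in both genes. The same bases read as follows on each strand.
TAF5 strand (plus): acaaccagcttttccaggttcataa
ATP5MK strand (minus): ttatgaacctggaaaagctggttgt

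The overlaps ranged from a few bases to whole gene neighbourhoods. The overlap of the spans was 2 to 178462 nt, with a median of 2637 nt and quartiles of 517 and 9267.5 nt. Exonic sequence was shared in 1025 pairs (89.1%), and 126 pairs overlapped without it. Over all pairs the median of shared exonic nucleotides was 314 (quartiles 75 and 902, highest 8870), and the shared stretch took a median of 5.78% of the exons of a gene. Of all 796074 shared nucleotides, 76.2% were coding in neither gene, 23.8% in at least 1 and 0.954% in both. Of the 2302 gene ends, 48.0% lay in a noncoding part of an exon of the partner, 47.6% in an intron and 4.39% in its coding sequence.

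These overlaps depended on which transcripts were taken. The canonical transcripts of both genes overlapped tail to tail in 622 pairs (54.0%), by a median of 534 nt. In 130 pairs, exons of another gene covered shared bases on the strand of a member. For 800 of the 2302 places, exons of an additional gene lay opposite the member as well. There were 6.21 pairs per 100 protein-coding genes on all 22 chromosomes together, from 3.83 on chromosome 13 (12 pairs) to 9.23 on chromosome 16 (77 pairs).

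Polyadenylation hexamers stood at most of these ends. AATAAA or ATTAAA, searched on the strand of the gene alone, occurred in the last 40 nt of 1417 of 2269 member genes, 62.5% (exact binomial interval 60.4% to 64.4%), against 70.5% of the 18541 protein-coding ends of the table. At canonical transcript ends the shares were 75.5% of 2264 members and 76.9% of 18290 genes. Both genes had a hexamer in 443 pairs, 1 gene in 548 and neither in 160. A match is only a run of letters, and the windows of THRA and NR1D1 and of PCBP2 and MAP3K12 held neither hexamer.

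Members of convergent pairs had higher listed counts than the protein-coding genes as a whole. Their median was 86 read pairs (quartiles 16 and 343), and 1838 of 2269 (81.0%, exact binomial interval 79.3% to 82.6%) had at least 10 counts, against 45.0% of all protein-coding genes, whose median was 7. At least 1 count was listed for 93.8% of the members (74.6% of all), at least 100 for 47.1% (14.0% of all) and at least 1000 for 10.3% (2.07% of all). The remaining 141 members were at 0, which allows up to 3 counts each as a one-sided limit at 95%. The binomial intervals here treat genes, or pairs of genes, as independent draws. The Poisson intervals treat read pairs in this way, and neither kind holds replicate error. Without molecular identifiers the same molecule can give several read pairs, so the Poisson intervals may be too narrow.

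The members made up 12.2% of the protein-coding genes and held 52.4% of their counts, 1039157 of 1981549. The 10 pairs with the highest sums held 17.9% of the member counts. Per length the order was the same: a median of 15.6 counts per exonic kb in members and 1.29 in all protein-coding genes, with median exonic lengths of 5505 and 4542 nt. Plus-strand members (median 89, 1135 genes) and minus-strand members (84.5, 1134 genes) lay close together.

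Other arrangements of genes had lower listed counts. The 16272 protein-coding genes in no convergent pair had a median of 5, and 39.97% of them had at least 10 counts. The 11586 genes without any exon on the opposite strand had a median of 3. Genes of the 834 head-to-head pairs, which overlap at their 5′ ends, had a median of 31, and 70.1% of them had at least 10 counts. Of the genes that stood in 1 kind of pair, the 1310 head-to-head genes had a median of 23 and the 1938 convergent genes one of 77.5. The 331 genes in both kinds had a median of 129. Members with no exon of an additional gene on the opposite strand had a median of 69 (1499 genes). None of these differences has a replicate error.

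The listed count went up with the length of exonic sequence that the pair shares. The median was 22.5 without shared exonic nucleotides (126 pairs), 49 with up to 100 (211 pairs), 88 with over 100 and up to 500 (372 pairs), 138 with up to 1000 (186 pairs), 221 with up to 2000 (155 pairs) and 258.5 with more. With exons of protein-coding transcripts alone, 335 pairs shared none and had a median of 50, and the next classes had 58, 109, 142, 229 and 225.5. The share of genes with at least 10 counts went from 67.9% without shared nucleotides to 89.7% with over 1000 and up to 2000 and 88.1% with more. Against the background of 45.0%, genes of pairs without shared exonic sequence were also more often listed with at least 10 counts. Their median was 19 where no additional gene lay opposite, against 340 in pairs with over 2000 shared nucleotides.

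**Figure D1:**
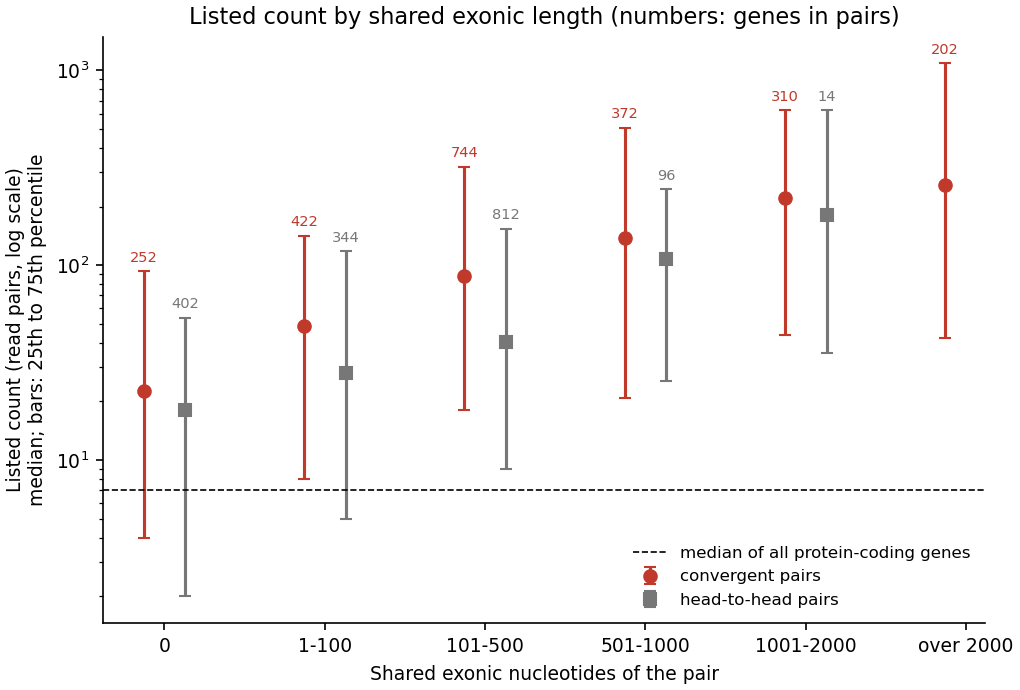
Median listed count of a gene (read pairs, log scale) by shared exonic nucleotides of its pair, for convergent pairs (circles) and head-to-head pairs (squares), with bars from the 25th to the 75th percentile of genes and the number of genes in pairs above them. The convergent medians go from 22.5 to 258.5, all above the dashed line at 7, the median of all protein-coding genes, and the bars of neighbouring classes overlap widely.

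The same order held within each class of exonic length. Among members with under 4132 exonic nt, the medians were 14.5 without shared nucleotides, 57 with up to 500 and 161 with more. Among members of 4132 to 7147 nt they were 31, 77 and 233, and among longer ones 26, 95 and 159.5. Spearman's rho of the count with shared nucleotides was 0.320 over 2302 gene places, and with whole exonic length it was 0.122. With the overlap of the spans it was 0.114. With counts per kb of the whole exonic length, the rho with shared nucleotides was 0.245. Over all 18541 protein-coding genes, rho of the count with whole exonic length was 0.332. These are descriptions across genes of 1 pooled library set, and both genes of a pair enter with the same shared length. In head-to-head pairs, where 633 of 834 shared exonic sequence, the medians were 18, 28, 40.5, 108 and 180 in the first 5 classes, the last of them from 7 pairs.

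Per kb of shared exonic sequence the median was 301 counts over 2050 places, and 216 (quartiles 40.2 and 791) over the 1632 places with at least 100 shared nucleotides. Per kb of all exons of the same 2050 places it was 18.7. Counts were listed per whole gene without read positions, so these values do not say how many read pairs fell on the shared stretch. Inserts were 150 to 250 nt long by the labels, longer than a short overlap, and counts per shared kb may be too high there. This was not tested. TAF5/ATP5MK, with 25 shared nt, had 5098 counts on TAF5 and 5 on ATP5MK.

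The counts of partners were seldom alike. Of 844 pairs with a sum of at least 100 counts, 663 (78.6%) differed at least 2-fold, 357 (42.3%, exact binomial interval 38.9% to 45.7%) at least 10-fold and 90 (10.7%) at least 100-fold, with counts under 3 set to 3. The median ratio of the higher to the lower count was 7.43. Both genes reached 10 counts in 776 pairs, 1 gene in 313 and neither in 62. Of the 1132 unequal pairs, 595 listed more counts on the plus strand, 52.6% (interval 49.6% to 55.5%).

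The counts of partners were weakly related across pairs. Over 1151 pairs, Spearman's rho was 0.207. On the scale of log2(CPM + 0.5), with CPM taken relative to all pairs on genes, Pearson's r was 0.20. Among the 776 pairs with at least 10 counts on both genes, rho was 0.117 and r was 0.104. In pairs with shared exons rho was 0.181 (n = 1025), without them 0.117 (n = 126), and in head-to-head pairs 0.0517 (n = 834). The partners share a library set, a locus and base composition, and the values are descriptions only. As shared sequence grew, the higher count of a pair went from a median of 68.5 to 857, and the lower count from 7 to 62.

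**Figure D2:**
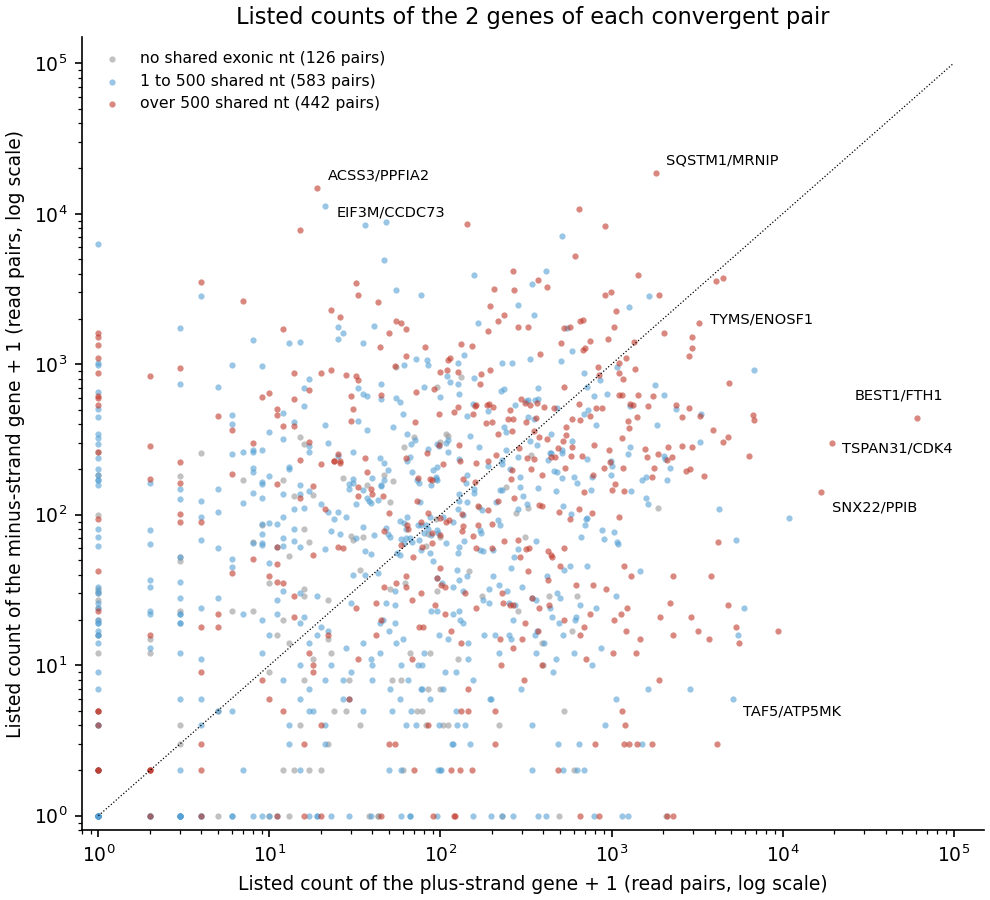
Listed count of the plus-strand gene against that of the minus-strand gene, each plus 1 and on a log scale, 1 point per convergent pair (1151), coloured by shared exonic nucleotides, with equality dotted. Points spread widely around the line, and at the right edge BEST1/FTH1, TSPAN31/CDK4 and SNX22/PPIB have 436, 301 and 140 counts on the minus-strand gene.

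Genes of iron storage, the cell cycle and protein folding faced 3 of the 4 members with the highest listed counts. BEST1 had 60938 counts (exact Poisson interval 60455 to 61424), the most of any member, while FTH1 had 436 (396 to 479). The pair overlaps at chr11:61727190-61732987, shares 1267 exonic nt, and the annotated end of BEST1 lies in coding sequence of FTH1, whose own end lies in an intron of BEST1. The shared stretch was 63.2% of the FTH1 exons and 14.6% of those of BEST1. TSPAN31, a tetraspanin gene, had 19470 counts and CDK4, the cyclin-dependent kinase of G1, had 301, with 1369 shared nt at chr12:58141510-58144002. SNX22 had 16822 counts and PPIB had 140, with 1163 shared nt at chr15:64447939-64449680. Exons of an additional gene lay opposite TSPAN31 (189 nt) and opposite neither BEST1 nor SNX22. In all 3 pairs over 98% of the summed counts was listed on the plus-strand gene: 99.3%, 98.5% and 99.2%.

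In other pairs the minus-strand gene took the counts. MRNIP had 18736 counts and SQSTM1 had 1818, with 1582 shared nt. PPFIA2, the synaptic scaffold liprin alpha 2, had 14851 and ACSS3, a mitochondrial acyl-CoA synthetase, had 18, with 1686 shared nt. CCDC73 had 11206 and EIF3M, a subunit of translation initiation factor 3, had 20, although the pair shares only 300 nt. RUVBL1, an AAA+ ATPase of chromatin remodelling complexes, had 10749 and SEC61A1, the channel of the protein translocon, had 641, with 622 shared nt. XRRA1 had 8332 and the ubiquitin ligase gene RNF169 had 910, with 2184 shared nt. Exons of an additional gene lay opposite MRNIP (194 nt), PPFIA2 (72 nt), RUVBL1 (343 nt) and XRRA1 (698 nt), and none opposite CCDC73. Their part in these counts was not tested.

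The autophagy gene ATG10 had 10901 counts and RPS23, a protein of the small ribosomal subunit, had 94, with 374 shared nt. RSPH10B2, a radial spoke gene, had 9421 and CCZ1B, part of an activator of the GTPase Rab7, had 16. This pair has a near-identical copy on the same chromosome, CCZ1/RSPH10B, with 14 and 7857 counts, so how the counts were split between the copies is uncertain. RSPH10B2/CCZ1B had the same order in its copy, where RSPH10B is the gene with the high count.

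Pairs long studied as overlapping genes included several with both genes well counted. A list of 11 such pairs was drawn up, and 10 of them met the rule (SURF2/SURF4 did not). BEST1/FTH1 is one of them, and the next 4 had over 100 counts on each gene. TYMS, thymidylate synthase, had 3265 counts (interval 3154 to 3379) and ENOSF1 had 1868 (1784 to 1955), with 967 shared nt. MSH6, of DNA mismatch repair, had 1151 and FBXO11, an F-box protein, had 624, with 4022 shared nt.

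DDIT3 had 1738 counts and MARS1 had 545, with 355 shared nt. POLR1G, a subunit of RNA polymerase I, had 669 and the excision repair gene ERCC1 had 246, with 1593 shared nt. In these 4 pairs the counts of the partners differed up to 3.19-fold. Exons of an additional gene lay opposite both genes of MARS1/DDIT3 (519 and 58 nt), MSH6/FBXO11 (266 and 200 nt) and TYMS/ENOSF1 (193 and 267 nt), and opposite neither gene of POLR1G/ERCC1.

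Other pairs of that list were more one-sided. THRA, thyroid hormone receptor alpha, had 718 counts (interval 666 to 772) and NR1D1, the clock repressor REV-ERB alpha, had 94 (76.0 to 115). They share 473 nt, of which 263 are coding in THRA and 197 in NR1D1, at chr17:38249046-38250120. FGF2, a fibroblast growth factor, had 524 and NUDT6, known as its antisense gene, had 19, with 804 shared nt.

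Much shared sequence did not go with high counts in every pair. ABI2, an actin regulator, and RAPH1, lamellipodin, shared the most, 8870 nt, and had 4812 and 329 counts. FARP1 and STK24 shared 7634 nt and had 129 and 226. NR2C2, an orphan nuclear receptor, and MRPS25, of the mitochondrial ribosome, shared 7157 nt and had 996 and 3035. MRPS22 and COPB2, a coat protein of vesicles, shared 6378 nt and had 211 and 249. NELFCD, of the negative elongation factor, and CTSZ, cathepsin Z, shared 6136 nt and had 281 and 67. These lengths take all annotated exons. The canonical transcripts of ABI2/RAPH1, MRPS22/COPB2 and NELFCD/CTSZ do not overlap tail to tail. Those of NR2C2/MRPS25 share 762 exonic nt and those of FARP1/STK24 share 5234.

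The longest overlaps were mostly intronic. ATP1B1, the beta subunit of the sodium pump, and NME7 overlapped by 178462 nt but shared 287 exonic nt, and had 367 and 289 counts. C12orf40 and SLC2A13 overlapped by 153276 nt, shared 70, and had 116 and 2. MFSD4B/REV3L (130 and 821), SYNE2/ESR2 (325 and 110) and BCL2L14/LRP6 (98 and 303) overlapped by 146327, 142202 and 95060 nt and shared none. REV3L is the catalytic subunit of polymerase zeta, ESR2 is estrogen receptor beta and LRP6 is a Wnt co-receptor.

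In the 5 pairs with the highest sums among those without shared exons, exons of an additional gene lay opposite the higher member. Over all 252 places in pairs without shared exons, 171 had no such exons opposite. MMP24, a membrane metalloproteinase, had 2067 counts and its partner ENSG00000261582 had 0, at least 689-fold lower at a floor of 3 counts per gene, with 968 nt of such exons opposite MMP24. LRRC51 had 1859 and LAMTOR1, of the lysosomal Ragulator, had 110, with 357 nt opposite LRRC51. CYREN had 965 and AGBL3 had 54, with 1237 nt opposite CYREN. REV3L had 693 nt opposite, and SPATA6L, with 706 counts against 95 for the glutamate transporter SLC1A1, had 313 nt. These are the 5 pairs with the highest sums among the 126, and the part of additional genes in their counts was not tested.

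The most uneven pairs had partners near 0. ZNF814, a zinc finger gene, had 6341 counts and ENSG00000268750 had 0, at least 2114-fold lower at the same floor, with 2565 nt of additional-gene exons opposite ZNF814. COX20, which assembles cytochrome c oxidase, had 4152 and HNRNPU, a nuclear RNA-binding protein, had 2 (exact Poisson interval 0.242 to 7.22). They share 3502 nt over all annotated exons, but their canonical transcripts do not overlap tail to tail. AP1G2, an adaptor subunit, had 3542 and THTPA had 3, with 3501 nt of additional-gene exons opposite AP1G2. In the ZNF814 pair and in THTPA/AP1G2, exons of another gene also covered shared bases on the strand of a member, where reads can be called ambiguous. They covered 366 and 620 nt, summed over both strands, and their part in the low counts was not tested. LCTL had 2837 and ZWILCH, a kinetochore protein, had 3. TAF5/ATP5MK was the remaining one of these 5.

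The most even pairs with a sum of at least 1000 counts had nearly equal genes. PCBP2, an RNA-binding protein, and MAP3K12, a neuronal kinase, had 842 (interval 786 to 901) and 853 (797 to 912), with 1494 shared nt, all exonic in both over the whole overlap. TUB and RIC3, a chaperone of acetylcholine receptors, had 713 and 702, with 188 shared nt. LONP2, a peroxisomal protease, and SIAH1, a ubiquitin ligase, had 1352 and 1394. IL18BP and NUMA1, of the spindle pole, had 1106 and 1016, and MYL5 and SLC49A3 had 860 and 785. Additional-gene exons lay opposite NUMA1 (3123 nt), MYL5 (571 nt), TUB (418 nt) and LONP2 (289 nt), and opposite neither gene of PCBP2/MAP3K12.

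Members of the translation and RNA-processing machinery often had the lower listed count of their pair. With both stated strand options in force, each listed count would be RNA of the opposite strand, and the order within a pair could turn. The places given as below the partner in each list, 14 of 18 and 22 of 28 here, could then lie above it. Of 18 places of translation factors and tRNA synthetases, 14 lay below the partner and 4 above, with medians of 69 for the list and 450.5 for the genes opposite. EIF3M (20) and EIF5A (35), the factor that carries hypusine, stood against CCDC73 (11206) and GPS2 (8439). EEF1A1, the elongation factor that brings tRNAs to the ribosome, had 14 against 109 for MTO1, and EIF4A2, an initiation helicase, had 6 against 119 for RFC4. EIF2AK1, a kinase of the stress response, was an exception, with 1778 against 323 for AIMP2. Over all protein-coding genes of this list, in pairs or not, the median was 18.

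Of 28 places of splicing and RNA-binding genes, 22 lay below the partner and 6 above, with medians of 30.5 and 231.5. HNRNPA2B1, a shuttling RNA-binding protein, had 19 and NFE2L3 had 1038, and PRPF18, a splicing factor, had 0 and FRMD4A had 1102. PRPF39 (2918, against 20 for FKBP3), HNRNPAB (2392, above its partner PHYKPL) and SRSF9 (1946, against 54 for GATC) went the other way. RBM4 (2) and RBM4B (947) are paralogs that face each other and count at both places, and reads of one can be hard to tell from reads of the other. Over all protein-coding genes of this list the median was 10.5.

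Ribosomal protein genes had 9 of 14 places below the partner, with medians of 65 and 121.5. RPS3A had 47 against 8825 for SH3D19, and RPL32 had 5 against 86 for CAND2, while RPS28 had 603 against 177 for KANK3. Mitochondrial ribosomal proteins (9 places) lay below the partner at 5 and above at 4, with MRPS25 the highest at 3035. RNA polymerase subunits were below at 4 of 9 places, and POLR2L, a small subunit shared by the polymerases, had 2862 against 76 for CD151.

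In DNA repair, 10 of 17 places lay below the partner, with medians of 182 and 393. FANCI, of the Fanconi anaemia pathway, had 1654 against 2849 for POLG, the mitochondrial DNA polymerase, RAD21, the cohesin subunit, had 2 against 1716 for UTP23, and XRCC3, of homologous recombination, had 1295 against 43 for KLC1. Vesicle traffic genes had 23 of 42 places below the partner and 18 above (medians 71.5 and 183).

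Other lists were balanced or leaned the other way. Zinc finger factors were below at 30 and above at 31 of 62 places, with medians of 93.5 and 97. The ubiquitin system was below at 17 and above at 18 of 36 places (107 and 72.5), with TRIM14 highest at 3437 against 344 for NANS. Solute carriers were below at 20 and above at 25 of 46 places (149.5 and 69.5). The highest place, SLC7A6OS with 3946, is in the list by symbol alone and faces SLC7A6, an amino acid transporter, with 1421. Respiratory chain and ATP synthase genes were below at 6 and above at 8 of 15 places (144 and 93). The 5 places of the proteasome list had medians of 427 and 69, with 2 below. Those below were PSME1 (11 against 69) and PSMC2 (10 against 26), and PSMC1 had 427 against 36. The other places were PSMG4 (2848 against 1131) and PSMC3IP (435 against 264), which are in the list by symbol alone.

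These lists go by the start or the end of a symbol and admit some outside genes. Among them are PSMG4 (2848 counts), a chaperone that helps to assemble the proteasome, PSMC3IP (435) and SLC7A6OS (3946), the gene opposite SLC7A6. Over all members the median was 86. Over all protein-coding genes of a list, in pairs or not, the medians of the 12 lists were 8 to 22.5. The counts per list are descriptions with no test, and nothing particular to a list follows from them.

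Further pairs were named after their values were seen. METTL5, a methyltransferase of ribosomal RNA, had 8613 counts and SSB, the La protein, had 141, with 572 shared nt. TOX4 had 6787 and METTL3, the catalytic subunit of the m6A writer, had 916, with 388 shared nt. PTRH2 had 7116 and CLTC, the clathrin heavy chain, had 515, with 244 shared nt. TMPRSS2, an androgen-regulated protease of prostate epithelium, had 15 and MX1, an interferon-induced antiviral GTPase, had 41, with 562 shared nt. The members of the function lists other than the highest of each list were likewise chosen for naming after their values were seen.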

How the data were processed

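RNA of both LNCaP replicates was measured together. The authors deposited raw read-pair counts per gene in 1 column, made with CASAVA 1.8, Trimmomatic 0.30, TopHat 2.0.12 and Bowtie2 2.2.3 on hg19 (fr-secondstrand) and HTSeq 0.6.1p1 (reverse for paired-end strand-specific data), without normalization. The overlap mode of counting is not given in the sources used here.

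Of 57820 Ensembl identifiers, 55538 were matched without version to GENCODE release 44 on GRCh37. This is not the annotation that was counted on, so exons and overlaps may differ from those counted. Shared exonic nucleotides are the intersection of all annotated exons of both genes. The rows of the table that name no gene (pairs on no feature, ambiguous or not unique) stayed out of every total.

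The replicates could not be separated, and no test was made. Intervals are exact Poisson and exact binomial (Clopper-Pearson), at 95%, and the floor for a count of 0 is 3. Precision is limited by 9495309 pairs on genes. The median of genes with a count is 12 pairs. Named pairs were a list of 11 long-studied pairs, the 10 with the highest sums, 5 each with the most shared nucleotides, the longest overlap, the highest sum without shared nucleotides, the most uneven (sum of at least 100) and the most even (sum of at least 1000) counts, and the highest member of each of 12 function lists. A few of these pairs are not reported here. The members and lists were chosen with earlier results of these data known. Alternatives were the exon set, the minimum count (5 or 20), members without an additional gene opposite, genes in 1 pair, the pseudocount (0.1 CPM) and the hexamer window. Canonical transcripts, counts per exonic kb, and leaving out near-identical copies or the 25 highest pairs were chosen after seeing the data. Simulated data were used to test the code for shared exonic length and a rank correlation, and no other step. Python 3.11.15, numpy 2.4.6, scipy 1.17.1 and matplotlib 3.10.9 were used.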

Additional observations from a re-analysis of the deposited data

How the results depend on the processing

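Of 43 alternatives, 30 kept the value close to that reported, 13 moved it and 0 reversed a direction. Close meant within 1.5-fold for counts and ratios, within the 95% interval for shares and within 0.1 for correlations. With spans of canonical transcripts, 645 pairs met the rule. The share of members with at least 10 counts (81.0%) was 86.1% at a minimum of 5 counts, 72.1% at 20 and 77.7% without additional genes opposite. The median count in pairs with over 2000 shared nucleotides was 11.5 times that in pairs without. This ratio was 4.51 with exons of protein-coding transcripts alone, 17.9 without additional genes and 6.27 per exonic kb. Pairs that differ at least 10-fold were 29.8% where both genes had at least 10 counts. The median count per shared kb (301) was 18.7 per kb of all exons. Ends with a hexamer were 54.9% in the last 30 nt, 64.5% in 50 nt, 49.98% for AATAAA alone and 75.5% at canonical ends. The cause of these moves was not tested. Of the members, 141 were at 0, and the part of depth in this was not tested. No paired analysis was possible because both replicates share 1 column and there is 1 group, nor could a replicate be left out.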
